A study of Rattus norvegicus with 8 samples.

Results

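Cortical glutamatergic neuron markers are described here in rat brain tissue taken 48 hours after an injection into the striatum. The 9 marker genes are Slc17a7, Slc17a6, Neurod1, Neurod2, Neurod6, Tbr1, Emx1, Nrn1 and Cck. They are 9 of 14217 genes that have a probe set annotated to them alone, and 10 of the 31099 probe sets on the array read them, a pair for Slc17a7 and 1 for each other gene. The genes were chosen by their use as markers of cortex in the dissected piece and by a measured value, the low Slc17a7 level on PBS replicate 3, so the values of Slc17a7 are a description and carry no test. Tissue was measured on 8 Affymetrix Rat Genome 230 2.0 arrays, 4 to a group. The inactivated baculovirus group came from adult male Wistar rats of 250 to 300 g given 50000000 vector particles in 5 µl, after the vector's infectivity had been removed by 1 hour of ultraviolet light at 254 nm. The other group came from striata of such rats given 5 µl of phosphate-buffered saline (PBS) alone. The labels call the tissue brain and do not say how the piece was cut, and RNA was labelled with either of a pair of kits, with no record of which array had which. Baculoviruses infect insects and enter mammalian cells without replicating there, which is why they serve as gene transfer vectors. The design text speaks of 7 rats and of PBS on the side opposite to the vector, and no label ties an array to a rat, so arrays may share an animal and p-values measure the spread between these samples only.

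Glutamatergic neurons of the cortex load glutamate into synaptic vesicles and send axons to the striatum, among other targets. Their RNA lies mainly in their cell bodies, which are in the cortex and not in the striatum. In a striatal piece these genes are therefore used as a measure of cortex, or other glutamatergic tissue, taken along. Whether they measure this here was not tested. Slc17a7 and Slc17a6 encode the vesicular glutamate transporters VGLUT1 and VGLUT2. In the adult rodent brain the first prevails in cortex and hippocampus and the second in thalamus and other subcortical nuclei. In bulk tissue, fewer cells of a type and less RNA per cell cannot be told apart.

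The promoters of Slc17a7 and Slc17a6 are shown because these transporters had different patterns over the arrays, and that of Neurod6 because its level on PBS replicate 3 went the other way from Slc17a7. Neurod proteins are basic helix-loop-helix transcription factors, which bind the E-box, CANNTG, a motif that reads the same on both strands. The sequences are the 250 bases before the gene start in RefSeq on GRCr8, read 5′ to 3′, with each CANNTG in capitals.
Slc17a7, GRCr8 chr1:104785955-104786204, plus strand: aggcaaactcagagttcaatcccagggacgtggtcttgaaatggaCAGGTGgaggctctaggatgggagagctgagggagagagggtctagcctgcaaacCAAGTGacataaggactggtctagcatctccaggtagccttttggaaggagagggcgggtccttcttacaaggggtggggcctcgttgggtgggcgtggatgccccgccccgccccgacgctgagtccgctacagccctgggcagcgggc
Slc17a6, GRCr8 chr1:110348197-110348446, plus strand: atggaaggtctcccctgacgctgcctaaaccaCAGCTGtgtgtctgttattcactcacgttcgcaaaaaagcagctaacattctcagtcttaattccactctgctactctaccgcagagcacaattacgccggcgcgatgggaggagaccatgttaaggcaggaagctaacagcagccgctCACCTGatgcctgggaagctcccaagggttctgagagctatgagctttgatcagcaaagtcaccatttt
Neurod6, GRCr8 chr4:86180156-86180405, minus strand: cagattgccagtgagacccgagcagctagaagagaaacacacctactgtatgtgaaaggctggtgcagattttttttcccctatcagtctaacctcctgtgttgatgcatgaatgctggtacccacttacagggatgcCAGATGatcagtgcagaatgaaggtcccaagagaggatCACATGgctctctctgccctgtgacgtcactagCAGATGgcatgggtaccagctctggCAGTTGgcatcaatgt
The Slc17a7 and Slc17a6 promoters each hold 2 matches and that of Neurod6 holds 4. Of 33469 promoters of this length in the RefSeq table, 65.5% hold at least 1 match, 30.8% at least 2 and 3.20% at least 4. The table has a promoter for 7 of the 9 genes, all but Nrn1 and Cck, and all 7 hold the motif. CAGATG, on either strand, occurs in the promoters of Neurod2 and Neurod6, against 14.0% of all promoters. A match is a description of letters and not a binding site.

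Tests covered the 18625 probe sets whose mean lay above an intensity of about 26.0, over which r between any pair of arrays was 0.970 to 0.986. Fold changes are differences of log2(intensity + 16), inactivated baculovirus minus PBS. Ppp1r1b, a marker of striatal projection neurons, lay between 976 and 1393 in intensity and was lowest on PBS replicate 3. The mean level of 21 tested genes of these neurons, each centred on its own mean, was not even. It ran from -0.22 on PBS replicate 1 to 0.19 on baculovirus replicate 4 (log2). How much striatum each piece held was not tested. A pair of arrays stood apart in Calr and Ttr. These genes were named as measures of arrays that stand apart, so their values are a description. Calr, an endoplasmic reticulum chaperone, had 505 on PBS replicate 3, with 1041 to 1162 elsewhere, and the choroid plexus gene Ttr had 47.7 on PBS replicate 4, with 1563 to 1968 elsewhere. PBS replicate 4 was also the lowest array for 4 of the other 5 tested choroid plexus genes, among them Folr1, a folate receptor, at 31.1 against 77.9 to 154.7. This array was the lowest for 10.2% of all tested probe sets.

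No marker gene that was given a test between the groups passed it. Slc17a7 carries no test and Tbr1 was below the level filter. None of the 7 tested genes other than Slc17a7 passed a limma adjusted p of 0.05, against 0% of all tested probe sets, and 0 had an unadjusted p under 0.05, against 2.51% of all tested probe sets that were higher and 4.22% that were lower. Of the 8 tested genes, 3 had a higher mean after inactivated baculovirus and 5 a lower one, with a median log2 fold change of -0.01, while 53.7% of all tested probe sets had a higher mean and their median was 0.01. The mean level of these 8 genes, each centred on its own mean over the arrays, differed by 0.016 on the log2 scale, which is smaller than the SD of 0.078 within groups, and by -0.016 with Slc17a7 left out.

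**Figure D1:**
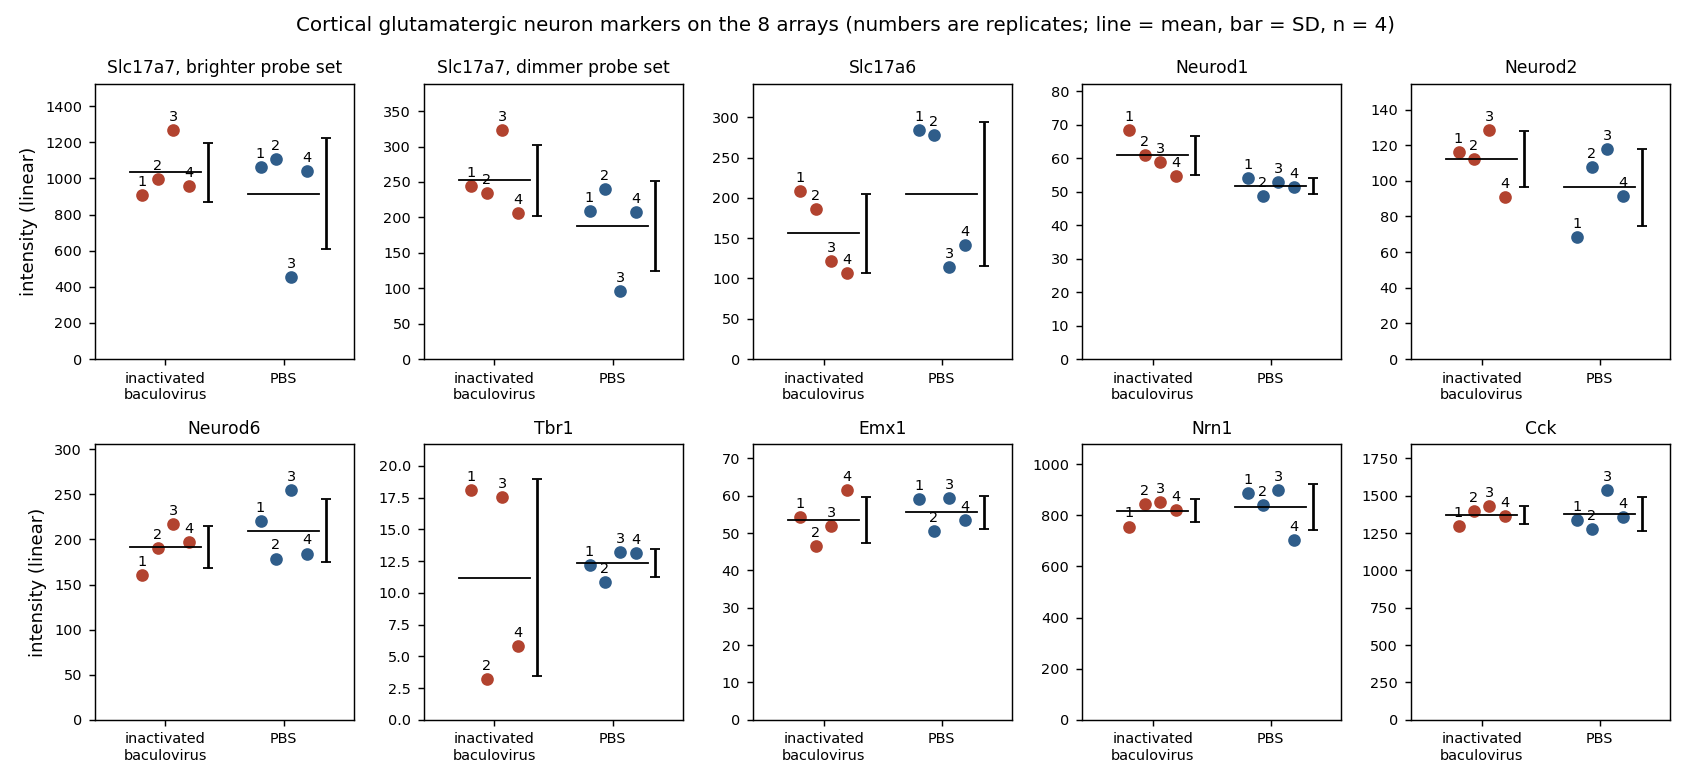
Intensity of the 10 probe sets on each array, on a linear scale from 0, with the replicate number at each point, the group mean as a line and the SD as a bar (n = 4 each). Slc17a7 is low on PBS replicate 3 in both panels, Slc17a6 is high on replicates 1 and 2 of both groups, and the groups separate for Neurod1 alone.

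Slc17a7, which fills cortical nerve endings' vesicles with glutamate, was read by a pair of probe sets. On the brighter one the inactivated baculovirus arrays measured 909, 998, 1270.5 and 957 and the PBS arrays 1060.4, 1108, 454 and 1039. On the dimmer one they measured 245, 234, 324 and 207 after inactivated baculovirus, against 208, 240.3, 95.5 and 208.0 after PBS. PBS replicate 3 was the lowest array on both, at 0.433 and 0.401 times the mean of the other 7, and the 7 others of both groups overlapped. The brighter probe set averaged 1034 ± 162 with the inactivated vector, against 915 ± 309 with PBS (SD of 4 arrays each), a log2 fold change of 0.24 ± 0.22 (SE). Without PBS replicate 3 the PBS mean was 1069 ± 35.2 (SD, n = 3) and the log2 fold change turned to -0.06. For the dimmer probe set it was 0.45 ± 0.21 with all arrays and 0.18 without that array. PBS replicate 3 thus set the sign of the difference for the brighter probe set and moved its size for both.

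The drop of Slc17a7 on PBS replicate 3 was not shared by most other cortical markers. Neurod6, Nrn1 and Cck had their highest level of all 8 arrays on this array, against 17.7% of all tested probe sets. Slc17a7 was the 1 tested marker gene with its lowest level there, against 17.8% of all tested probe sets. On the log2 scale PBS replicate 3 differed from the mean of the other 7 arrays by -1.17 for both Slc17a7 probe sets and by -0.58 for Slc17a6, and by -0.08 for Neurod1, 0.11 for Emx1, 0.14 for Nrn1, 0.18 for Cck, 0.20 for Neurod2 and 0.38 for Neurod6. Only 77 tested probe sets, 0.413%, were lower by 1 or more on this array. Slc17a7 had rank 13 from the bottom among 10539 genes. Its low value on this array was part of how the markers were chosen. The shares and the rank of Slc17a7 are therefore a description and no test.

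**Figure D2:**
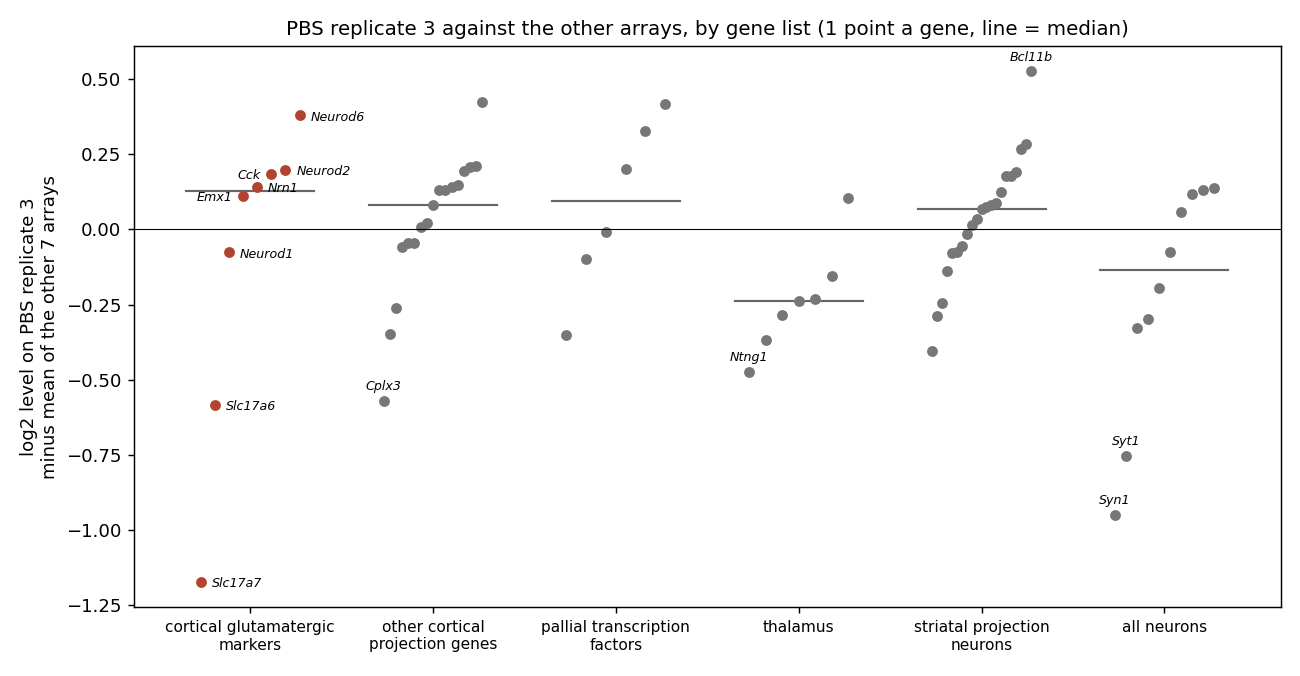
Log2 level on PBS replicate 3 minus the mean of the other 7 arrays, 1 point for each tested gene and a line at the median of each list. Slc17a7 is the lowest point at -1.17, while Neurod6, Neurod2, Cck, Nrn1 and Emx1 lie above 0.

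Other genes of cortical projection neurons did not share the drop as a group. Of 20 listed, 17 were tested, and their median difference between PBS replicate 3 and the other arrays was 0.08. The array was the lowest for 2 of them and the highest for another 2, against 17.8% and 17.7% of all tested probe sets. Cplx3, a complexin that controls vesicle release, had 48.8 there, with 66.0 to 93.1 elsewhere, and Cux2, an upper-layer transcription factor, differed by -0.35. Bhlhe22, a transcription factor of cortical neurons, had 207 on PBS replicate 3, with 112 to 197 elsewhere, and Mef2c, an activity-regulated transcription factor, had 932 there, with 732 to 874 elsewhere. The dimmer Mef2c probe set had 770 on PBS replicate 3, with 560 to 785 elsewhere, and was highest on baculovirus replicate 3. Another list held 6 tested transcription factors of the developing pallium, the cortical part of the forebrain. PBS replicate 3 was the lowest array for 0 and the highest for 2, beside the same shares of 17.8% and 17.7%. Those 2 factors were Lhx2, at 259 against 176.5 to 226, and Pax6, at 94.3 against 56.9 to 80.6.

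General neuron genes split on PBS replicate 3. Of 10 tested, 5 had their lowest level there and 2 their highest, against 17.8% and 17.7% of all tested probe sets. The median difference of the 10 was -0.14. Syn1, which tethers synaptic vesicles, had 325 on PBS replicate 3, with 535 to 762 elsewhere, and Syt1, the calcium sensor of release, was at 37.5 against 63.5 to 88.5. Snap25, part of the fusion complex, had 1899 there, with 1578 to 1944 elsewhere. The beta-actin difference between 3′ and 5′ probe sets, a measure of RNA quality and labelling, was 0.460 on the log2 scale for PBS replicate 3, inside the 0.364 to 0.722 of the other arrays. The part of these genes' common low array in the Slc17a7 values was not tested.

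Genes most like Slc17a7 over the 8 arrays were Hk1, a hexokinase, Agap3, Ptk2b, a tyrosine kinase, Pfkl, a phosphofructokinase, and Gpr137, with r between 0.976 and 0.984. All 5 were lowest on PBS replicate 3, and without that array r was between 0.751 and 0.884. The r values over all 8 arrays are the largest among the 10539 genes with the markers left out, and carry no p. Values of r without PBS replicate 3 were not ranked. The genes with the deepest drop on PBS replicate 3 were Camk2n2, an inhibitor of the kinase CaMKII, at 20.4 against 88.1 to 124 on the other arrays, Hbb, a haemoglobin chain, at 46.6 against 63.3 to 735, Faim2 at 217 against 652 to 797, Brcc3-ps7 at 46.2 against 77.9 to 208, and Drap1, a repressor of transcription, at 75.9 against 197 to 235.

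Slc17a6, the subcortical vesicular glutamate transporter, measured 209, 186.5, 122 and 107 on the inactivated baculovirus arrays and 285, 278, 114 and 142 on the PBS arrays. Replicates 1 and 2 of both groups were high and replicates 3 and 4 of both groups were low, with no array in between, and the groups overlapped. Mean intensity was 156 ± 49.4 with the inactivated vector, against 205 ± 89.2 with PBS (SD of 4 arrays each). This gave a log2 fold change of -0.31 ± 0.26 (SE; 95% interval -0.87 to 0.26; limma adjusted p = 0.824). It ran from -0.53 without PBS replicate 3 to -0.13 without PBS replicate 1. Its SD over the 8 arrays, 0.516 on the log2 scale, was larger than that of 99.3% of all tested probe sets, where the median was 0.150.

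Several thalamus genes were high on the same arrays as Slc17a6. Of 7 tested, 4 had replicates 1 and 2 of both groups as their 4 highest arrays, against 1.43% of all tested probe sets. The same 4 arrays were the highest for 2 of 6 tested choroid plexus genes, Ttr and the prolactin receptor gene Prlr, for 1 of 9 tested interneuron genes, Calb2, and for 0 genes of the other lists. This set of arrays was taken from the Slc17a6 values, so the share describes the likeness and is no test of it. Tcf7l2, a transcription factor of thalamic neurons, measured 224, 204, 133 and 111 after inactivated baculovirus and 247, 281, 149.7 and 124 after PBS. A dimmer tested Tcf7l2 probe set did not have these 4 arrays highest. It measured 39.6, 27.2, 27.6 and 24.7 after inactivated baculovirus and 26.0, 27.6, 33.7 and 20.7 after PBS. Prkcd, a protein kinase C form of thalamic relay neurons, measured 188, 229, 157 and 140.3 after inactivated baculovirus and 233, 215.0, 140.2 and 156 after PBS. Rgs16, a regulator of G protein signalling, measured 97.7, 91.3, 60.7 and 50.6 after inactivated baculovirus and 110.9, 104.7, 65.2 and 58.3 after PBS. Ntng1, which encodes the axon guidance protein netrin-G1, was the other gene with this order. Of the remaining genes, Rora, Zic1 and the brighter Lef1 probe set did not follow this order. The dimmer Lef1 probe set did, with 28.5, 42.1, 24.5 and 22.2 after inactivated baculovirus and 34.2, 35.5, 20.3 and 21.4 after PBS. Between the treatments, 1 of the 7 had a higher mean after inactivated baculovirus and 6 a lower one, with a median log2 fold change of -0.05, and limma called 0, also at an unadjusted p under 0.05. The part of thalamus in the Slc17a6 values was not tested. Over the 8 arrays, r of Slc17a6 was -0.39 with Neurod6, 0.09 with Nrn1 and -0.70 with Cck, given as a description.

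**Figure D3:**
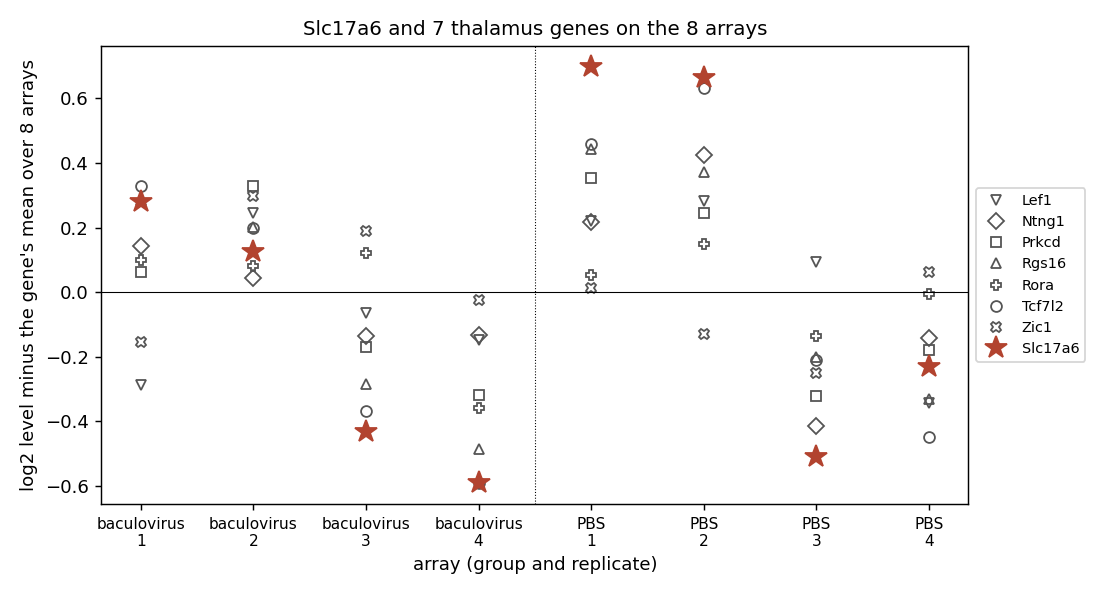
Log2 level of Slc17a6 (stars) and of the 7 tested thalamus genes (open marks) on each array, each minus the gene's mean over the 8 arrays. Each gene is shown by its brightest probe set. Slc17a6, Tcf7l2, Prkcd, Rgs16 and Ntng1 lie above 0 on replicates 1 and 2 of both groups and below 0 on replicates 3 and 4.

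The Neurod genes encode transcription factors that drive and maintain the neuronal state. Neurod1 measured 68.6, 61.1, 59.0 and 54.8 after inactivated baculovirus and 54.1, 48.6, 52.8 and 51.5 after PBS. It was the 1 marker whose groups did not overlap, with all inactivated baculovirus arrays higher, though baculovirus replicate 4 and PBS replicate 1 were only 54.8 and 54.1. Groups that do not overlap occurred for 1.55% of all tested probe sets in this direction and 2.31% in the other. Its mean was 60.9 ± 5.80 with the inactivated vector, against 51.8 ± 2.35 with PBS (SD of 4 arrays each), and the difference did not pass (log2 fold change 0.18, 95% interval -0.03 to 0.39, limma adjusted p = 0.755).

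Neurod2, which remains on in adult cortical projection neurons, measured 116, 112, 129 and 91.0 after inactivated baculovirus and 68.5, 108, 118 and 91.5 after PBS. The groups overlapped, and PBS replicate 1 was the lowest array. The fitted log2 difference was 0.20 (95% interval -0.10 to 0.50; limma adjusted p = 0.788), and 0.07 without PBS replicate 1. Neurod6, also a marker of adult cortical projection neurons, measured 161, 190.2, 217 and 197 after inactivated baculovirus and 221, 179, 255 and 184 after PBS. The groups overlapped, with PBS replicate 3 the highest array and baculovirus replicate 1 the lowest. The fitted log2 difference was -0.12 (95% interval -0.37 to 0.14; limma adjusted p = 0.859), and -0.02 without PBS replicate 3.

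Tbr1 and Emx1 are transcription factors that set cortical identity, Tbr1 in the deep layers and Emx1 throughout the developing cortex. Tbr1 was below the level filter and was not tested, with 18.1, 3.23, 17.6 and 5.81 after inactivated baculovirus and 12.2, 10.9, 13.2 and 13.1 after PBS. Emx1 ran from 46.5 to 61.5 after inactivated baculovirus and from 50.4 to 59.4 after PBS, and the groups overlapped. The fitted log2 difference was -0.04 (95% interval -0.27 to 0.18; limma adjusted p = 0.954).

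Nrn1 and Cck are products of the neurons and not regulators: Nrn1 encodes neuritin, a membrane-anchored protein that promotes neurite growth, and Cck the neuropeptide cholecystokinin, which cortical neurons make in quantity and some interneurons make too. Nrn1 measured 756, 845, 851 and 820.2 after inactivated baculovirus and 886, 841, 898 and 701 after PBS. The groups overlapped, with the highest and the lowest array both in the PBS group. The fitted log2 difference was -0.02 (95% interval -0.20 to 0.16; limma adjusted p = 0.982). Cck measured 1295, 1398, 1429 and 1363 after inactivated baculovirus and 1337, 1278, 1536 and 1358 after PBS. The fitted log2 difference was -0.004 (95% interval -0.15 to 0.14; limma adjusted p = 0.996), and its SD over the arrays, 0.0835 on the log2 scale, was larger than that of only 7.68% of all tested probe sets.

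**Figure D4:**
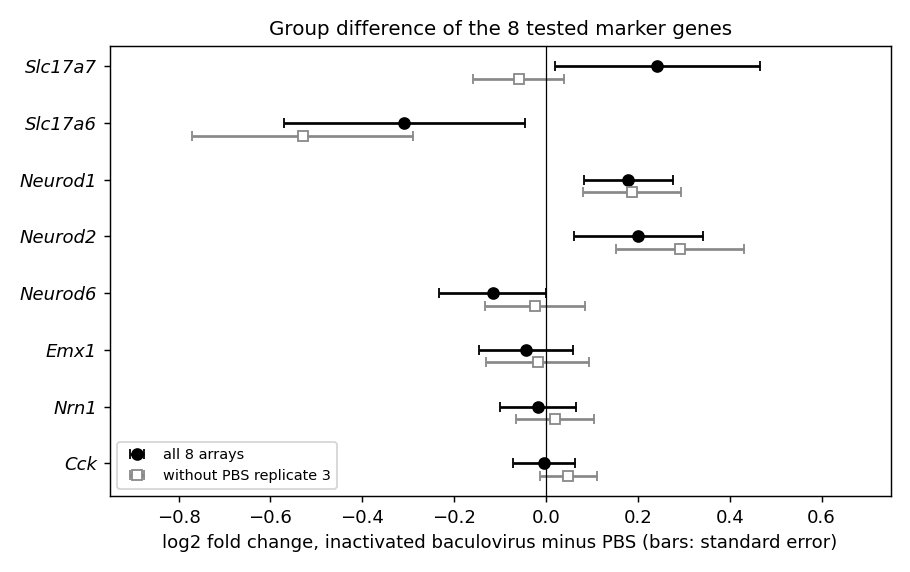
Log2 fold change with its standard error for the 8 tested marker genes, with all 8 arrays (filled) and without PBS replicate 3 (open). Slc17a7 is at 0.24 with all arrays and at -0.06 without that one, and Slc17a6 is at -0.31 and -0.53.

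The markers did not vary as 1 group. Among the 28 pairs of tested genes, r over the 8 arrays was above 0 in 12 and ran from -0.70 for Slc17a6 with Cck to 0.83 for Neurod6 with Cck. These values describe 8 arrays that may share animals and carry no p. The mean level of the 7 tested genes other than Slc17a7 was lowest on PBS replicate 4, at -0.12, and on baculovirus replicate 4, at -0.09, and lay between 0.012 and 0.067 on the other arrays. The genes most like this mean were Aqp9, a water channel, Mrm2, Arl16, Syt12 and Rnf144b, with r between 0.942 and 0.974. With Slc17a6 also left out, PBS replicate 3 had the highest mean level, at 0.14, and PBS replicate 4 the lowest, at -0.10.

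Genes related to the markers by role did not pass the test either. In limma, 0 of 17 other cortical genes, 0 of 6 pallial factors and 0 of 11 genes of glutamate handling had an adjusted p under 0.05, and 1, 0 and 1 had an unadjusted p under 0.05, where all tested probe sets gave 2.51% higher and 4.22% lower. Among other cortical projection genes, 7 had a higher mean after inactivated baculovirus and 10 a lower one, with a median of -0.03. The smallest p belonged to Tle4, a deep-layer corepressor, at -0.19 ± 0.09 (log2 fold change ± SE), then Cplx3 at 0.25 ± 0.13 and Cux2 at 0.18 ± 0.11. Of the pallial factors 1 was higher and 5 lower, with a median of -0.05, led by Pax6 at -0.21 ± 0.12, Nr2f1 at -0.28 ± 0.28 and Id2 at 0.07 ± 0.07. Id2 was the higher one by its brighter probe set, and its dimmer one was at -0.20 ± 0.12. Of 11 genes of glutamate handling and cholecystokinin signalling, 5 were higher and 6 lower, with a median of -0.04. They were led by Slc38a2, a glutamine transporter, at -0.23 ± 0.10, the cholecystokinin receptor Cckbr at 0.15 ± 0.10 and the glutamate transporter Slc1a2 at 0.12 ± 0.08.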

How the data were processed

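The authors deposited intensities of 8 Rat Genome 230 2.0 arrays on a linear scale. Per the submitters' processing notes, GCOS and GCRMA were used, but the sources used here do not tell which of them made these values. The trimmed mean, with 2% of values left out at each end, was 100.02 on every array. The annotation names 1 gene for 20826 probe sets, several for 436 and none for 9780, leaving out 57 controls. Values were turned into log2(intensity + 16) with no further normalization, since array medians spanned less than 0.2. The level filter kept probe sets whose mean exceeded the 40th percentile, and the brightest stands for a gene. The test was limma 3.58.1, run in R 4.3.3 (variance trend, two-sided, no block, Benjamini-Hochberg over all probe sets tested, threshold 0.05), and the procedure was tested on simulated data. Precision is limited by having 4 arrays a group: the 95% interval extended 0.231 to either side for the median probe set. The members and lists were chosen with earlier results of these data known. Genes named are the members, the 3 of each list with the smallest p, Calr, Ttr, the 5 most like Slc17a7 and like the other markers, and the 5 lowest on PBS replicate 3. The other genes were named after their values were seen. The replicate number was not used as a block, since the labels give no batch. Over all tested probe sets, arrays with the same number did not deviate together (r between -0.005 and 0.016). This r cannot tell whether single genes such as Slc17a6 go with the number. Alternatives were pseudocounts, normalization, filters, the methods' t-test, the block, averaging over probe sets and leaving out each array.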

Additional observations from a re-analysis of the deposited data

Results flagged for a closer look

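Among 158 sets of 4 arrays examined, 17 held an array far from the others of its group, where chance alone gives about 1 in 20. The count cannot be set against that share, because many of these genes were named for values on the array concerned. The low Slc17a7 value on PBS replicate 3 was part of how the markers were chosen, so it is given as a description: the probe sets had 95.5 on PBS replicate 3 against 207.98 to 240.3 and 454 against 1039 to 1108 on the other PBS arrays. PBS replicate 3 was also far below the other PBS arrays for Calr (505), Faim2 (217), Drap1 (75.9), Agap3 (287) and Gpr137 (149), of which the last 4 were named for being low there or for their likeness to Slc17a7. Calr and Ttr were named as measures of arrays that stand apart, so their values are a description too. Syt12, Arl16 and Rnf144b were named for following a mean level that is low on replicate 4 of both groups. PBS replicate 4 was far below for Ttr (47.7), Rnf144b (155) and Bhlhe22 (112), and Opalin, a myelin gene, was high on PBS replicate 2 (341). Baculovirus replicate 4 was far below its group for Syt12 (27.2), Arl16 (232), Rora (34.99) and Opalin (229.7). Baculovirus replicate 3 was high for Nptx1 (837), a synaptic pentraxin of cortical neurons, and low for Zbtb20 (401).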

How the results depend on the processing

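In limma, and in the methods' t-test after Benjamini-Hochberg, 0 marker probe sets and 0 of all probe sets passed under each alternative run for these counts, which averaging over a gene's probe sets was not, while 709 to 1957 of all probe sets had an unadjusted p under 0.05 with 1 array left out. No fold change of a tested marker other than Slc17a7 passed where an adjusted p was computed, with adjusted p between 0.577 and 0.999. Cck turned to 0.018 with quantile normalization. With 1 array left out, Cck ran from -0.0386 to 0.0488, Nrn1 from -0.0961 to 0.0202, Emx1 from -0.0974 to 0.00623 and the brighter Slc17a7 probe set from -0.06 to 0.36. The mean level difference of the markers stayed within the SD within groups in the alternatives run for it. The arrays' deviations over all tested probe sets did not bear out the replicate number as a block. With this block the Slc17a6 log2 fold change was -0.31 with an SE of 0.11 (limma adjusted p = 0.785). The block changed no call at an adjusted p of 0.05. At an unadjusted p under 0.05, 0 tested markers other than Slc17a7 were found with the settings as reported. There was 1 each with the block (Slc17a6), with the methods' t-test (Neurod1) and without PBS replicate 3 (Slc17a6). The methods' t-test gave 0 probe sets with an unadjusted p under 0.05 and a 2-fold difference. Tbr1 entered only without the level filter, and Neurod1 and Emx1 dropped out with the filter at the 60th percentile. Leaving PBS replicate 3 out for the dimmer Slc17a7 probe set was chosen after seeing the data, and gave 0.18 against 0.45. Dim probe sets such as Tbr1 limit what can be followed.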

Other observations

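In the remaining lists limma called 0 genes after adjustment. An unadjusted p under 0.05 was found for 2.51% of all tested probe sets in the higher direction and 4.22% in the lower. Beside these shares it was found for 3 of 21 genes of striatal projection neurons, 2 of 9 of interneurons, 1 of 10 of neurons in general, 1 of 9 of microglia, 3 of 8 of meninges and fibroblasts, and 0 in each of the thalamus, hippocampus, oligodendrocyte, astrocyte and choroid plexus lists. Of 21 tested markers of striatal projection neurons 4 had a higher mean after inactivated baculovirus and 17 a lower one, led by Bcl11b at -0.39 ± 0.11, Meis2 at -0.28 ± 0.09 and Pdyn at -0.30 ± 0.12 (log2 fold change ± SE). Dimmer tested probe sets of Bcl11b and Pdyn were at -0.24 ± 0.12 and 0.18 ± 0.21. Interneuron genes had 5 higher and 4 lower, with Gad1 at -0.19 ± 0.07, Slc5a7 at -0.33 ± 0.13 and Slc32a1 at 0.17 ± 0.11. The dimmer Gad1 probe set was at 0.08 ± 0.23. General neuron genes had 4 higher and 6 lower, with Nefl at -0.28 ± 0.09, Rbfox3 at 0.13 ± 0.09 and Syn1 at 0.25 ± 0.19. The dimmer Nefl probe set was at -0.02 ± 0.08, and those of Rbfox3 and Syn1 were at 0.08 ± 0.09 and 0.34 ± 0.22. The thalamus genes with the smallest p were Zic1 at 0.15 ± 0.13, Tcf7l2 at -0.22 ± 0.24 and Lef1 at -0.13 ± 0.15. Dimmer tested probe sets of Tcf7l2 and Lef1 were at 0.09 ± 0.13 and 0.05 ± 0.16. Of 3 tested hippocampus genes 1 was higher and 2 lower, with Zbtb20 at 0.14 ± 0.09, Wfs1 at -0.05 ± 0.10 and Prox1 at -0.12 ± 0.22. Dimmer tested Zbtb20 probe sets were at -0.06 ± 0.10 and 0.04 ± 0.07.

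Oligodendrocyte genes had 3 higher and 4 lower, with Mag at 0.10 ± 0.08, Mog at -0.04 ± 0.07 and Opalin at -0.05 ± 0.10. Astrocyte genes had 3 higher and 5 lower, with Slc1a2, Aqp4 at -0.09 ± 0.07 and Gja1 at -0.08 ± 0.07. Microglia genes had 8 higher and 1 lower, with Cx3cr1 at 0.23 ± 0.11, P2ry12 at -0.26 ± 0.13 and C1qc at 0.20 ± 0.15. Choroid plexus genes had 5 higher and 1 lower, including Steap1 (0.30 ± 0.17), Folr1 (0.45 ± 0.26) and Aqp1 (0.22 ± 0.13), and their mean level on PBS replicate 4 was -1.20 relative to each gene's mean over the arrays (log2). Genes of meninges and fibroblasts had 7 higher and 1 lower, with Bgn at 0.47 ± 0.12, Igfbp2 at 0.25 ± 0.10 and Col1a1 at 0.23 ± 0.10. PBS replicate 3 was the lowest array for 5 of these 8 genes, against 17.8% of all tested probe sets.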
